A study of Mus musculus with 22 samples.

Results

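The cells described here are the 7777 cells that the deposited cell table of a mouse gastruloid series names Early Spinal Cord, out of 77674 cells of 25 named types. They were picked by that name alone, and their counts were read from the lane matrices by lane and cell barcode. A further 4 cells of that name, for a total of 7781, had no barcode in their lane's matrix and were not used. A gastruloid could be assigned to 6241 of the 7777 cells, and 116 of the 136 barcoded gastruloids held at least 1 of them. The name was given by the authors to a part of 1 expression cluster: Early Spinal Cord made up 57% of it and Late Spinal Cord the other 43.0%. The genes that set this cell type apart therefore describe the naming and carry no test here.

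Gastruloids are free-floating aggregates of embryonic stem cells that elongate and form cell types of the early embryo after a pulse of CHIR99021, which blocks the kinase GSK3 and so switches on Wnt signalling. All groups were wild-type E14Tg2A mouse embryonic stem cells of this single line, and all had the same pulse, so that the groups differ only in age and in the experiment they belong to. MULTI-seq 1 held 24 gastruloids of day 5, MULTI-seq 2 held 11 of day 4 and 12 of day 4.5 with at least 30 cells, and MULTI-seq 3 held 24 of day 3 and 16 each of days 3.5, 4, 4.5 and 5. In these experiments the cells of each gastruloid were labelled with a lipid-anchored DNA barcode, pooled and split over several 10x lanes, and 2 lanes without barcodes came from pooled gastruloids of days 3 and 4. The Early Spinal Cord cells of those lanes (8 and 188) and of pool C of MULTI-seq 2 (399 and 341) had no gastruloid call and entered no test. MULTI-seq 2 also held gastruloids of days 3 and 3.5 (pools A and C), which were not analysed here. In MULTI-seq 3 day 3 had its own lanes, days 3.5 and 4 shared a set of lanes, and days 4.5 and 5 shared another set.

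The gastruloid was the replicate: UMI counts (unique transcripts) of its Early Spinal Cord cells were summed over lanes, and gene tests used gastruloids with at least 10 such cells. These sums held between 176099 and 9303019 UMIs. The labels do not say whether gastruloids of 1 group came from separate cultures, so the p-values measure the spread between gastruloids of an experiment. The experiments differed in quality: the median Early Spinal Cord cell had 12058 UMIs in MULTI-seq 1, 29505 and 31836 in MULTI-seq 2 and 31902 to 37472 in MULTI-seq 3, and mitochondrial UMIs made up 5.11% to 5.61% in the first 2 experiments and 1.77% to 1.95% in the third. The barcode of 147 Early Spinal Cord cells (1.89%) also occurred in another lane, the same percentage as over all cells. Among the gastruloids of day 3.5 in MULTI-seq 3, 1 stood apart in its posterior Hox genes, and among those of day 4 in MULTI-seq 2, 1 stood apart in Hoxa7, Hoxa9 and Wnt5a. Their comparisons are given with and without them.

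In the embryo the spinal cord grows from neuromesodermal progenitors (NMPs) at the tail end, which keep Sox2 together with T (brachyury) under Wnt and FGF signalling and give rise to both spinal cord and paraxial mesoderm. Cells that leave this pool for the neural side lose T, keep Sox2 and first pass through a posterior neural plate state before retinoic acid and Sonic hedgehog pattern them. Hox genes are switched on in the order of their paralogue number as the axis extends, so the set of Hox genes in a spinal cord cell records the level of the axis at which it formed.

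The 4 markers fixed for this cell type were all present. Summed over all Early Spinal Cord cells, Sox2 (ENSMUSG00000074637), a transcription factor of neural progenitors, stood at 134 CPM (UMI counts scaled to a common total), the 4th highest of the 25 types and below the 264 CPM of Late Spinal Cord. Hoxc8 (ENSMUSG00000001657), a thoracic Hox gene, stood at 259 CPM, second to NMPs at 268 CPM. Wnt5a (ENSMUSG00000021994), a Wnt ligand of the elongating tail, was highest in Early Spinal Cord of all types at 104 CPM. The presomitic mesoderm type Early Anterior PSM, at 100 CPM, and NMPs, at 93.7 CPM, were close to it. Hes5 (ENSMUSG00000048001), a target of Notch in neural progenitors, stood at 89.8 CPM, the 5th highest, against 259 CPM in Late Spinal Cord. Sox2 and Hes5 were thus both lower than in the late type. The gene with the highest ratio to any other type was Hoxa9, with 95.7 CPM against 62.0 CPM in NMPs, followed by Hoxa7 with 129 CPM against 96.9 CPM, and of the 4 markers Wnt5a alone was highest here. Of the lists of other lineages, the presomitic and somite genes summed highest, to 182 CPM, against 60.2 CPM in Late Spinal Cord, 1273 CPM in NMPs and 2282 CPM in Mature Somites, and the brain and hindbrain genes summed to 110 CPM with 9 of 12 under 1 CPM. The summed endoderm list reached 26.9 CPM, the blood and endothelium list 8.22 CPM, and the list of neuron genes 138 CPM against 9856 CPM in the cells named Neurons.

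The values beside neighbouring types are a description of the naming. In 40 gastruloids with at least 10 cells of both names, Early Spinal Cord had more Fgf17 than Late Spinal Cord (38.9 against 3.96 CPM on average, higher in 39 of 40), more Fgf8 (82.3 against 17.4 CPM) and more Hoxd9 (40.8 against 4.49 CPM). Fgf8 and Fgf17 are ligands of the posterior growth zone. Late Spinal Cord had more Sox21 (64.4 against 4.64 CPM), Pax6 (27.5 against 3.11 CPM) and Dbx1 (24.8 against 2.02 CPM), which mark the patterned neural tube, and more of the retinoic acid-induced Nr2f2 (47.2 against 3.40 CPM). In 64 gastruloids with both names, NMPs had more T (205 against 28.4 CPM), Tbx6 (29.6 against 1.55 CPM) and Wnt3a (47.4 against 3.33 CPM), and T was lower in Early Spinal Cord in 64 of 64. Irx3, a homeobox gene of the neural plate, went the other way with 47.0 CPM in Early Spinal Cord and 13.4 CPM in NMPs. Against Late Neurectoderm, compared in 17 gastruloids, the trunk Hox genes told the types apart: Hoxc8 averaged 279 against 7.31 CPM and Hoxc9 120 against 5.53 CPM.

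The share of Early Spinal Cord cells in a gastruloid ranged widely within a day, and none of 6 comparisons of mean shares passed the adjusted threshold of 0.05. On day 3 of MULTI-seq 3, 9 of 24 gastruloids held any such cell, with a mean share of 0.174% ± 0.244 (SD, n = 24). On day 3.5 the lowest, median and highest shares were 0%, 3.95% and 22.4% (mean 6.07% ± 6.24, SD, n = 16). On day 4 the median was lower, at 0.807%, with 2 gastruloids standing far above the others and the highest at 26.3% (mean 3.98% ± 8.61, SD, n = 16). In MULTI-seq 2 the median was 1.40% on day 4, with a highest share of 29.5%, and 17.4% on day 4.5, with shares from 0.373% to 42.7%.

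On days 4.5 and 5 Early Spinal Cord was present in every gastruloid with at least 30 cells. In MULTI-seq 3 the shares ran from 2.24% over a median of 14.2% to 47.5% on day 4.5 (n = 16) and from 4.00% over 18.1% to 31.7% on day 5 (n = 16). In MULTI-seq 1 they ran from 2.89% over 23.2% to 39.7% on day 5 (n = 24). The groups overlapped. The change closest to the threshold was that of MULTI-seq 2, where the mean was 20.6% ± 15.0 (SD, n = 12) on day 4.5 and 8.21% ± 11.3 (SD, n = 11) on day 4 (permutation test, 2-sided, p = 0.0380, adjusted p = 0.228, higher than the day 4 median in 11 of 12 gastruloids). With at least 100 cells asked of each gastruloid the difference was 17 percentage points with an adjusted p of 0.0368 by the permutation test. This minimum removed the highest day 4 shares, 29.5%, 23.9% and 21.7%, which came from gastruloids of 61, 92 and 60 cells. It also removed day 4 shares of 0% and 1.64% (74 and 61 cells) and a day 4.5 share of 34.8% (69 cells). The difference between day 5 and day 4.5 in MULTI-seq 3 was -5.40 points (adjusted p = 0.391 by the permutation test).

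The part of a gastruloid's spinal cord cells that carried the early name varied as widely. Among gastruloids with at least 10 cells of the 2 spinal cord names, the early part ranged from 6.33% over a median of 88.8% to 100% on day 5 of MULTI-seq 1 (n = 23), from 21.5% over 84.5% to 100% on day 5 of MULTI-seq 3 (n = 16), and from 29.5% over 81.1% to 98.2% on day 4.5 of MULTI-seq 3 (n = 15). On day 4.5 of MULTI-seq 2 it ranged from 31.5% to 100% (n = 11). In MULTI-seq 1 the values fell into 9 gastruloids at or below 53.8% and 14 at or above 78.4%. No difference between days or experiments was found among the 3 tested (permutation tests, adjusted p = 0.898 for each).

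**Figure D1:**
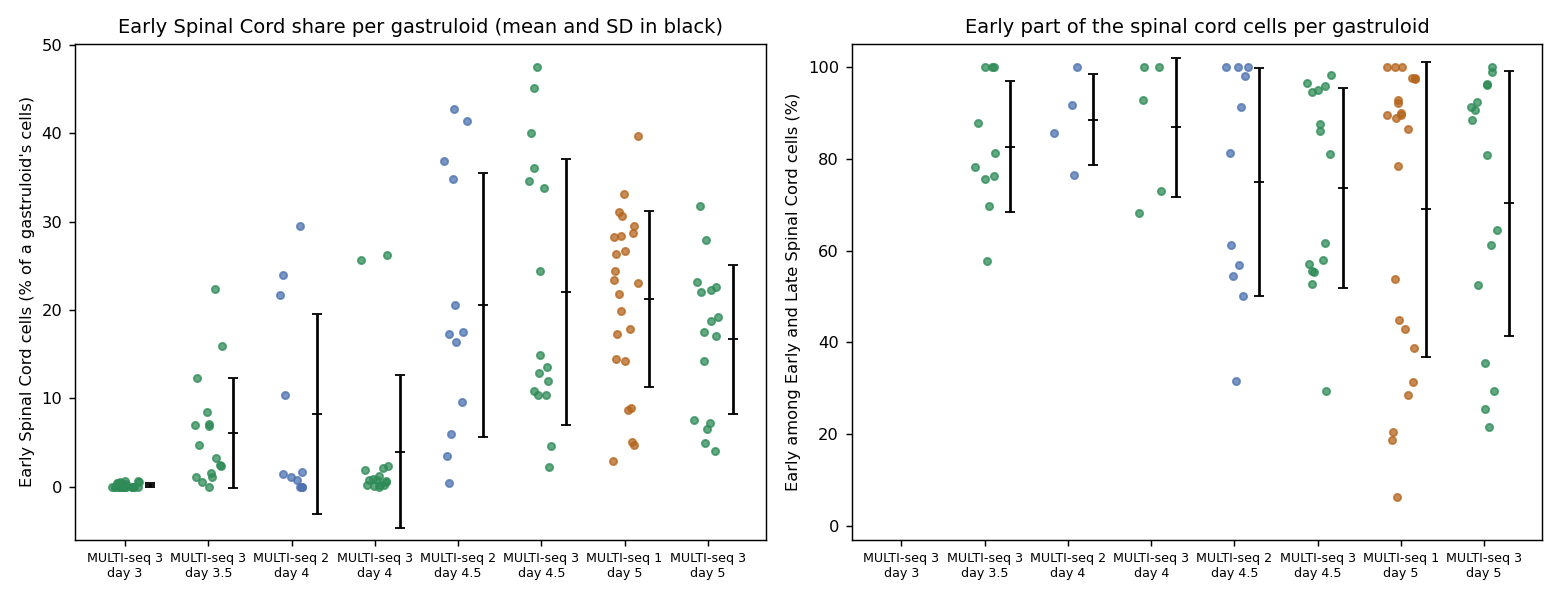
Left, share of Early Spinal Cord cells (percent of a gastruloid's cells) for each gastruloid with at least 30 cells, by experiment and day; right, the Early part of all Early and Late Spinal Cord cells (percent) for gastruloids with at least 10 of them. Points are gastruloids and black bars the mean and SD; on day 4 of MULTI-seq 3 the points lie near 0 except for 2, and on day 5 of MULTI-seq 1 the early part runs from 6.33% to 100%.

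The early part was set against the share of somite cells (Somites and Mature Somites) among the cells of the gastruloid that were not spinal cord. Day 5 of MULTI-seq 3 had no separate clusters, and there Pearson's r was -0.22 (permutation p = 0.403, n = 16), Spearman's rho was -0.05 (permutation p = 0.851), and r was -0.14 without the 2 gastruloids farthest from the median. In the other groups the values were split once, at the widest gap, and no coefficient over a whole group is given. Of the clusters with at least 6 gastruloids, that of 14 gastruloids of day 4.5 in MULTI-seq 3 had an r of 0.67 (permutation p = 0.0113, adjusted p = 0.0565) and a rho of 0.60 (permutation p = 0.0287, adjusted p = 0.144), with an r of 0.54 without the 2 farthest gastruloids. It left out 1 gastruloid, which had an early part of 29.5%. The 14 kept still lay in 2 clumps of early part, 52.7% to 61.6% and 81.1% to 98.2%. Their coefficients pool these clumps and cannot show a relation within either. The clusters of 9 and 14 gastruloids in MULTI-seq 1 had r of -0.08 and 0.10 and rho of -0.10 and 0.09, and that of 6 in MULTI-seq 2 had an r of -0.08 and a rho of -0.03 (permutation tests, adjusted p = 0.95 for each r). Without the 2 farthest gastruloids these r were -0.05, 0.31 and 0.96, the last over the few that were left. None of the 5 relations tested passed after adjustment. The clusters were cut at the widest gap in the early part itself, so the coefficients within them cannot show a relation between clusters. On day 4.5 of MULTI-seq 2 the 5 gastruloids with early parts of 31.5% to 61.2% had somite shares of 0% to 15.6%. The 6 with early parts of 81.25% to 100% had 27.4% to 44.2%. In MULTI-seq 1 the somite shares of the 2 clusters overlapped (14.3% to 46.3% and 21.2% to 48.0%). The difference between clusters was not tested.

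The authors also matched each cell to an atlas of the mouse embryo. The match rests on the same cells' genes, and whether the naming used it is not stated in the labels. Of the 7777 cells, 3167 (40.7%) were matched to NMPs and 2728 (35.1%) to spinal cord progenitors, 698 to caudal epiblast, 648 to neural tube and 231 to ectoderm. The smaller parts differed between groups. Neural tube averaged 18.7% and 17.8% per gastruloid on days 4.5 and 5 of MULTI-seq 3. It averaged 0.276% on day 5 of MULTI-seq 1 and 0% to 2.20% in the remaining groups. Caudal epiblast ran from 1.61% on day 5 of MULTI-seq 3 to 28.0% on day 4 of MULTI-seq 2. The embryonic stage of the matched cells averaged E8.61 ± 0.0577 (SD, n = 15) on day 4.5 of MULTI-seq 3 and E8.68 ± 0.0535 (SD, n = 16) on day 5, and 15 of the 16 day 5 gastruloids lay above the day 4.5 median. The difference in means of 0.0730 days passed (permutation test, adjusted p = 0.00366), though the gastruloids overlapped (E8.51 to E8.68 and E8.56 to E8.79). No reference name passed the test: NMPs made up 45.9% ± 10.5 and 46.8% ± 12.1 of the matches on the 2 days (permutation test, adjusted p = 0.816). In MULTI-seq 2 the mean stage was E8.39 ± 0.0523 (SD, n = 4) on day 4 and E8.48 ± 0.114 (SD, n = 11) on day 4.5, a difference that did not pass (exact permutation test, adjusted p = 0.198). In MULTI-seq 3 it was E8.60 ± 0.0971 (SD, n = 10) on day 3.5 and E8.58 ± 0.0493 (SD, n = 5) on day 4 (exact permutation test, adjusted p = 0.747). On day 5 of MULTI-seq 1 it was E8.53 ± 0.114 (SD, n = 23), below each mean given for MULTI-seq 3. The stage between experiments was not tested.

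Hox genes of both ends of the clusters were higher on the later day. Between day 4.5 and day 5 in MULTI-seq 3, where 12.4% of 9061 tested genes passed an adjusted p of 0.05 (edgeR quasi-likelihood test, 554 or 6.11% higher and 571 or 6.3% lower on day 5), both tested members of Hox groups 10 to 13 were higher, as were 8 of 15 in groups 1 to 5, with none lower. Of groups 6 to 9, 4 of 11 were higher and 3 lower.

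Hoxc10, a lumbar Hox gene, had 2.53, 12.4 and 23.6 CPM as the lowest, median and highest of the 15 gastruloids of day 4.5. On day 5 the lowest, median and highest of 16 were 29.9, 85.0 and 199 CPM. The groups did not overlap, and the log2 change was 3.08 (SE 0.28, adjusted p = 6.12e-11 by edgeR's quasi-likelihood test). Its neighbour in rank Hoxa10 had a median of 3.58 CPM on day 4.5 and 25.5 CPM on day 5, with ranges of 0 to 9.46 and 5.48 to 53.6 CPM (log2 change 2.77, SE 0.29, adjusted p = 2.76e-09 by edgeR's quasi-likelihood test). The remaining 10 members of groups 10 to 13 were too low to be tested.

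Hox groups 6 to 9, which pattern the thorax, held changes in both directions. Hoxd9 rose from a median of 19.5 CPM (2.58 to 52.8) to 61.7 CPM (at most 103), a log2 change of 1.49 (SE 0.22, adjusted p = 4.20e-06 by edgeR's quasi-likelihood test). Hoxa9 rose by 0.57, from 83.2 to 140 CPM in the median, and Hoxc6 rose by 0.38. Hoxd8 rose by 0.75, at levels from 11.4 ± 5.05 to 19.6 ± 5.88 CPM.

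Hoxc8, one of the markers of the cell type, went the other way. It had 216, 328 and 452 CPM as lowest, median and highest on day 4.5 and 141, 176 and 206 CPM on day 5. No day 5 gastruloid reached the lowest of day 4.5, and the log2 change was -0.95 (SE 0.071, adjusted p = 5.24e-13 by edgeR's quasi-likelihood test). Hoxb8 was likewise lower without overlap, with 180 to 283 CPM on day 4.5 and 103 to 172 CPM on day 5 (log2 change -0.54). Hoxb7 changed by -0.24. Hoxb9 and Hoxa7 did not pass, with log2 changes of -0.18 (adjusted p = 0.162) and 0.08 (adjusted p = 0.562) by the same test.

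Of the anterior Hox genes of groups 1 to 5, which are active up to the hindbrain, 8 of 15 rose, as given above. Hoxd4 averaged 31.6 ± 5.76 CPM on day 4.5 and 43.4 ± 6.06 CPM on day 5 (log2 change 0.45), Hoxb4 70.7 ± 6.01 and 84.2 ± 10.6 CPM (0.25), and Hoxa5 13.9 ± 5.01 and 18.7 ± 4.24 CPM (0.55). All 16 day 5 gastruloids lay above the day 4.5 median in Hoxd4 and 15 of 16 in Hoxb4.

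The plot of Hox levels gives all days by gastruloid. Days 3.5 and 4 of MULTI-seq 3 came from other lanes than days 4.5 and 5. A difference between day 4 and day 4.5 therefore cannot be told apart from one between sets of lanes. In MULTI-seq 3 Hoxa9 averaged 19.5 ± 28.9 (SD, n = 10), 57.5 ± 44.1 (n = 5), 93.9 ± 32.5 (n = 15) and 139 ± 16.6 CPM (n = 16) on days 3.5, 4, 4.5 and 5. On day 4 the 5 gastruloids had 9.96, 16.6, 70.2, 75.2 and 116 CPM, 2 low and 3 high. Hoxb9 had means of 372, 378, 258 and 227 CPM on the same days, and neither of its day steps tested here passed. Hoxc10 reached 76.7 ± 46.7 CPM (SD, n = 23) on day 5 of MULTI-seq 1, with a range from 2.64 to 216 CPM that covers most of both days of MULTI-seq 3.

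**Figure D2:**
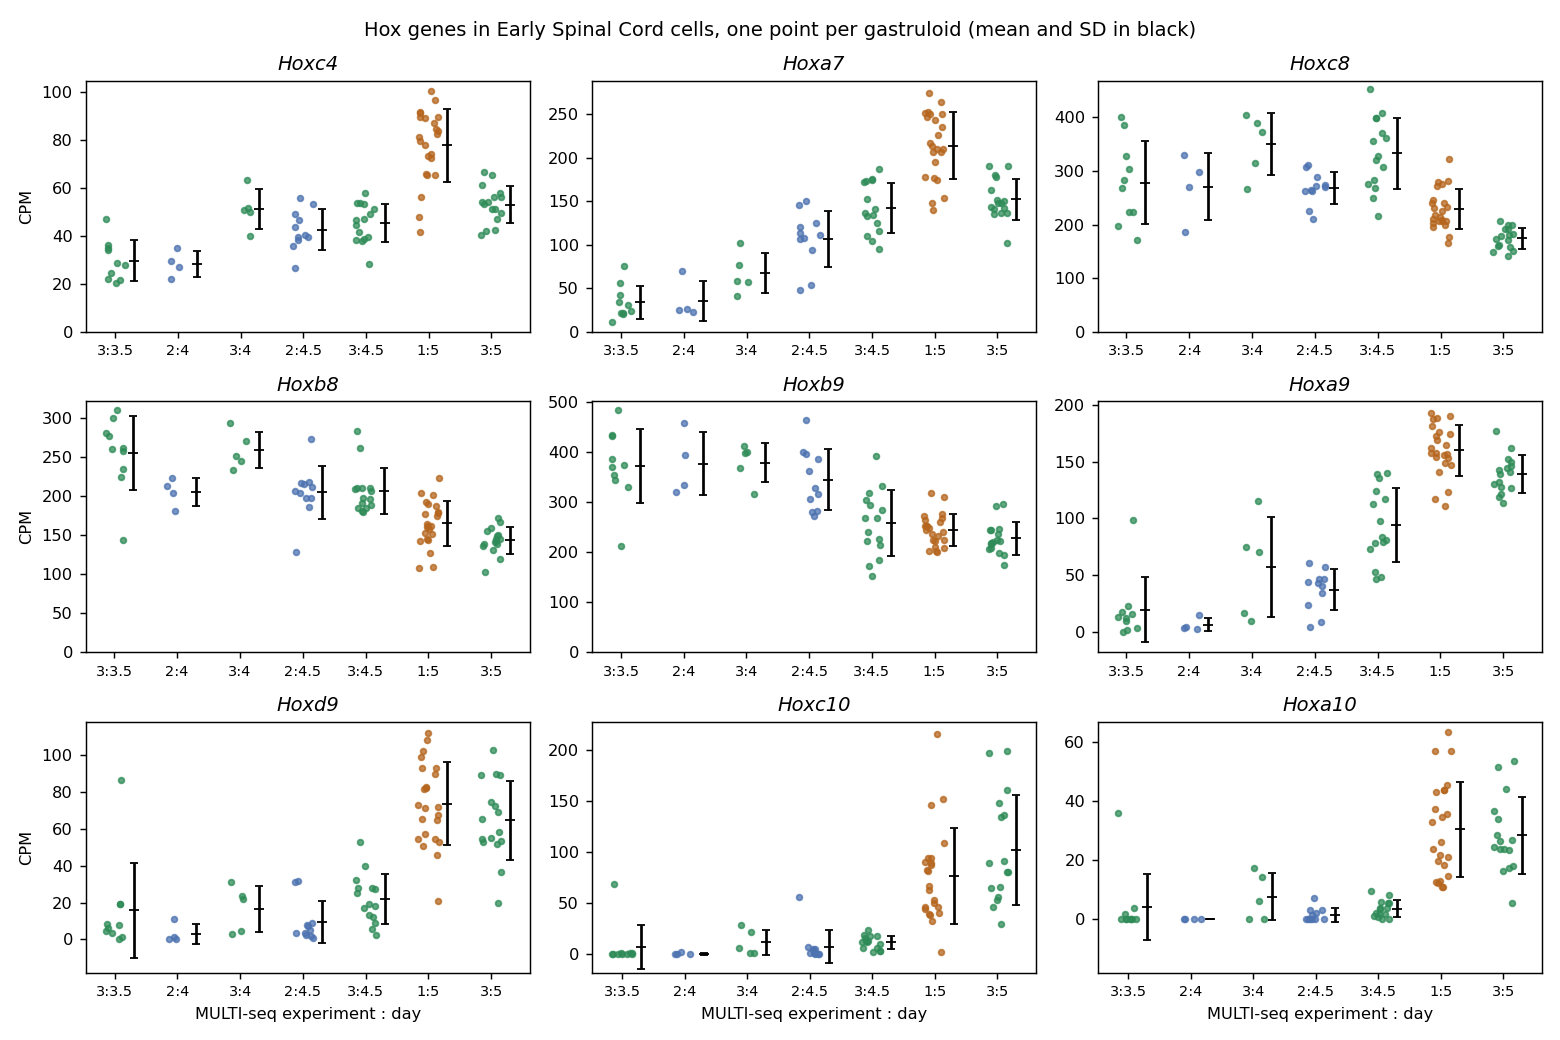
CPM of 9 Hox genes in Early Spinal Cord cells, 1 point per gastruloid with at least 10 such cells, by experiment and day (written as experiment:day; colours are experiments; black bars give mean and SD). Hoxc10 has medians of 12.4 and 85.0 CPM on days 4.5 and 5 of MULTI-seq 3 and Hoxa10 of 3.58 and 25.5 CPM, while Hoxc8 and Hoxb8 are lower on day 5 of MULTI-seq 3.

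The other groups of genes that differed between day 4.5 and day 5 in MULTI-seq 3 concern signals of the tail, neural maturation, developmental timing and metabolism. Among the posterior progenitor genes 2 of 12 tested were higher and 3 lower, where 6.11% of all tested genes were higher and 6.3% lower. Wnt5a had 72.7, 90.1 and 108 CPM as lowest, median and highest on day 4.5 and 114, 135 and 171 CPM on day 5, without overlap (log2 change 0.54, SE 0.057, adjusted p = 2.47e-09 by edgeR's quasi-likelihood test). Hes3, a posterior neural plate repressor of differentiation, had medians of 27.0 and 12.5 CPM and ranges of 8.13 to 63.0 and 8.27 to 20.9 CPM (log2 change -1.33). Nkx1-2, a gene of the early neural plate and of NMPs, changed by -0.29, and Sp8 rose by 0.22.

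Of the Wnt targets 2 of 11 tested were lower on day 5 and of the FGF targets 2 of 12, with none higher, where 6.3% of all tested genes were lower. Lef1, a transcription factor of the Wnt pathway, averaged 79.9 ± 10.1 and 61.5 ± 8.37 CPM on the 2 days (log2 change -0.38), and Sp5, a Wnt target, 40.0 ± 19.7 and 27.0 ± 18.2 CPM (-0.83). Of the FGF targets, Dusp4 changed by -0.52 and Etv1 by -0.42. Id3 and Id2, targets of BMP, rose by 0.54 and 0.26 and Id1 fell by 0.27. Of 12 genes of the Notch pathway, the receptors Notch3 and Notch1 and the ligand Jag1 rose by 0.43, 0.26 and 0.35, and Hes5 did not pass (95.6 ± 28.7 and 109 ± 24.3 CPM, log2 change 0.19, adjusted p = 0.287 by edgeR's quasi-likelihood test).

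Of the neural progenitor genes 5 of 22 tested were higher and 3 lower, beside 6.11% and 6.3% of all tested genes. Pou3f2, a POU factor of neural precursors, rose from a median of 10.6 CPM (3.62 to 23.3) to 24.4 CPM (15.9 to 37.7), a log2 change of 1.15 (SE 0.15). Sox11 averaged 282 ± 39.7 and 368 ± 55.9 CPM (0.38), and the intermediate filament gene Vim 102 ± 23.4 and 144 ± 28.8 CPM (0.52). Irx3 rose by 0.40 and Nes by 0.42. The 3 that were lower, Zic5 (-0.51), Zic2 (-0.35) and Gbx2 (-0.17), are genes of the early neural plate. Sox2 itself was 126 ± 36.3 and 154 ± 30.3 CPM and stayed just outside the threshold (log2 change 0.28, SE 0.099, adjusted p = 0.0516 by edgeR's quasi-likelihood test). Crabp2, which carries retinoic acid to its receptor, had medians of 135 and 242 CPM and ranges of 74.4 to 223 and 151 to 356 CPM (log2 change 0.80), and Crabp1 rose by 0.63, the 2 of 12 retinoic acid genes that passed.

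The developmental timing list, which holds Lin28 genes and let-7 targets, had 4 of 13 higher and 5 lower, beside 6.11% and 6.3% of all tested genes. Prtg, a cell surface protein of the early neural plate and paraxial mesoderm, had 153 to 272 CPM on day 4.5 and 85.5 to 148 CPM on day 5, without overlap (log2 change -0.81). Nr6a1, an orphan nuclear receptor of trunk development, had medians of 61.8 and 36.5 CPM (-0.87), and the DNA methyltransferase Dnmt3b 46.1 and 30.7 CPM (-0.58). Lin28b changed by -0.34 and Igf2bp1 by -0.19. Hmga2 had 309 to 448 CPM on day 4.5 and 451 to 648 CPM on day 5 and rose by 0.36, and the other methyltransferase Dnmt3a (0.42), Sox9 (0.73) and Igf2bp2 (0.13) rose as well.

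Genes of glycolysis and hypoxia moved in 1 direction: 11 of 21 tested were higher and none lower, with 20 of the 21 estimates above 0, where 6.11% of all tested genes were higher. Ldha, which makes lactate, had a median of 671 CPM (431 to 875) on day 4.5 and 1014 CPM (713 to 1227) on day 5 (log2 change 0.59, SE 0.072). The lactate exporter Slc16a3 rose by 1.44, the pyruvate dehydrogenase kinase Pdk1 by 0.96, Ddit4 by 0.88 and the mitophagy gene Bnip3 by 0.80. The glycolytic enzymes Pfkl, Pgk1 and Tpi1 rose by 0.49, 0.48 and 0.43. Of the stress and dissociation genes 0 of 9 tested passed by edgeR's quasi-likelihood test.

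Of the neuron genes 4 of 5 tested were lower on day 5, where 6.3% of all tested genes were lower. Stmn2, a microtubule regulator of neurons, had a median of 62.0 CPM (23.1 to 114) on day 4.5 and 14.9 CPM (3.01 to 27.0) on day 5 (log2 change -2.0, SE 0.17). Ina, Tubb3 and Nefl changed by -1.51, -1.20 and -0.69, and Elavl4 rose by 0.61. Of the broader neurogenesis list, which shares genes with it, 2 of 10 tested were higher (Cdkn1c and Elavl4) and 2 lower (Stmn2 and Tubb3), with a list median of 0.00 on the log2 scale beside -0.00 over all genes. The 12 genes of the neuron list summed to 71.6 to 209 CPM per gastruloid on day 4.5 and to 32.4 to 66.4 CPM on day 5, and 2 of them were at 0 in each group. They summed to 344 ± 68.8 CPM on day 3.5 and to 271 ± 63.8 CPM on day 4 of the same experiment, which came from another set of lanes. The part of RNA from other cells in these values was not tested.

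**Figure D3:**
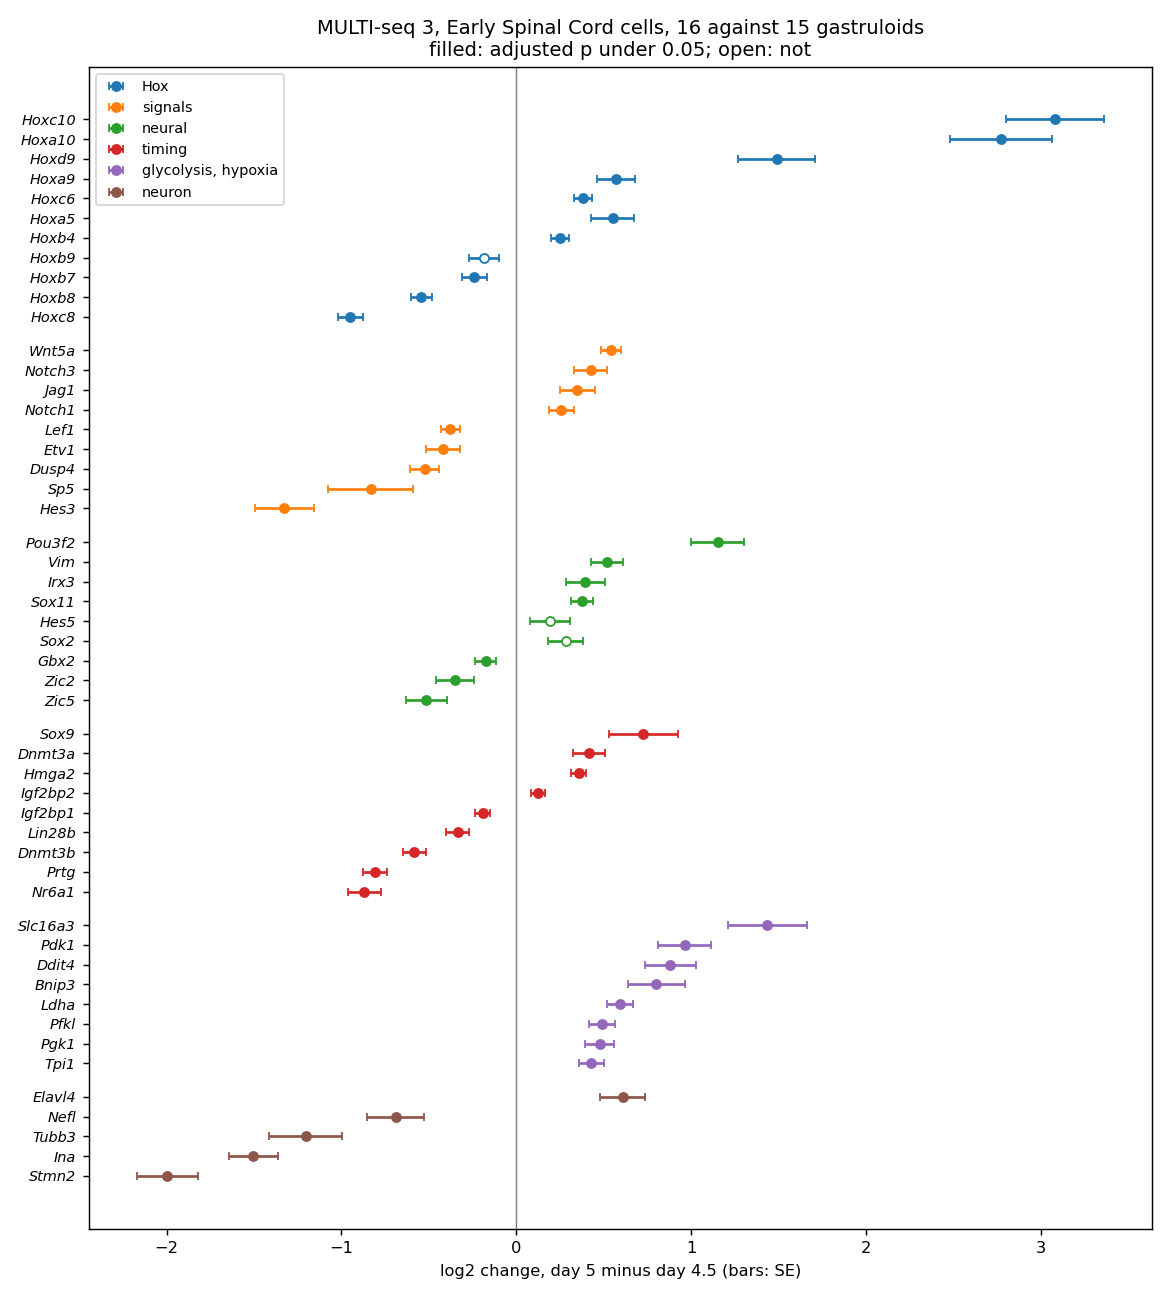
Log2 change between day 5 and day 4.5 in MULTI-seq 3 for named genes of Early Spinal Cord cells (16 against 15 gastruloids), grouped by list; bars are SE, filled points have an adjusted p under 0.05. Hoxc10 lies highest at 3.08 and Stmn2 lowest at -2.0, and all glycolysis and hypoxia genes drawn lie above 0.

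Most of the genes named for this step kept their direction and call without the cells matched to NMPs or earlier names, a subset chosen after seeing the data: 58 of 68 still tested passed, and Hoxc10, Hoxa10 and Hoxc8 changed by 2.94, 2.53 and -0.95. With UMIs per cell as a covariate 59 of 74 passed, and among those that did not were Bnip3, Crabp1, Dnmt3a, Gbx2, Gli2, Id1, Id2, Id3, Igf2bp1, Irx3, Notch1, Sox9, Sp5 and Zic2. The counts over all genes were then 284 higher and 348 lower. With any of the 3 lanes left out, 388 to 390 genes were higher and 354 to 374 lower.

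The fits of the steps between earlier days called fewer genes but also held fewer gastruloids. They had 5 against 10 and 11 against 4, beside 16 against 15 for the step to day 5. The numbers of genes therefore do not compare the sizes of the steps. Only 5 of the 16 day 4 gastruloids of MULTI-seq 3 and 4 of the 11 of MULTI-seq 2 held at least 10 Early Spinal Cord cells. Of those 5, 2 held 100 and 120 such cells (shares of 25.6% and 26.3%). The others held 13 to 25 (1.89% to 2.35%). Between day 3.5 and day 4 in MULTI-seq 3, 2.8% of 6827 genes passed (92 or 1.35% higher and 99 or 1.45% lower on day 4, edgeR's quasi-likelihood test), and of the Hox genes 1 of 7 in groups 1 to 5 and 2 of 10 in groups 6 to 9 rose. Wnt5a had 16.3, 38.7 and 79.3 CPM as lowest, median and highest of 10 gastruloids on day 3.5, and 64.3, 75.4, 85.1, 99.9 and 116 CPM in the 5 of day 4. All 5 lay above the day 3.5 median (log2 change 0.99, SE 0.17, adjusted p = 0.00137). Hoxa7 averaged 33.8 ± 19.4 and 67.5 ± 23.3 CPM (log2 change 1.04), Hoxc6 60.8 ± 23.3 and 106 ± 17.4 CPM (0.75) and Hoxc4 29.7 ± 8.39 and 51.2 ± 8.23 CPM (0.67). The non-coding antisense transcript Hotairm1 of the HoxA cluster, for which no source states whether counting used strand, averaged 20.7 ± 6.38 and 36.2 ± 4.99 CPM (0.73, adjusted p = 0.00267 by edgeR's quasi-likelihood test).

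Of the list of Wnt targets 3 of 9 tested fell between day 3.5 and day 4, and of the dissociation and stress genes 1 of 7, Hspa8. Of all tested genes 1.45% were lower. Nkd1, Axin2 and Lef1, targets of Wnt signalling, fell by 0.74, 0.48 and 0.31 on the log2 scale. The levels of Nkd1 in the 5 gastruloids of day 4 were 20.3, 21.8, 24.3, 25.0 and 33.4 CPM, against 27.9 to 63.4 CPM on day 3.5. The heat shock chaperone Hspa8 averaged 1731 ± 210 and 1331 ± 150 CPM (log2 change -0.34), and Atf4 and Herpud1, which are not on that list, changed by -0.64 and -0.85. The glycolytic genes Tpi1, Ldha and Pgk1 rose by 0.37, 0.42 and 0.30. Sox2 and Hoxc8 did not pass (adjusted p = 0.892 and 0.165 by edgeR's quasi-likelihood test).

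In this comparison 1 gastruloid of day 3.5, with 12 Early Spinal Cord cells of 489, stood apart in its Hox genes. Hoxc10 had 68.4 CPM there and 0 to 1.30 CPM in the other 9, Hoxa9 99.1 against 0 to 22.7 CPM, Hoxd9 86.5 against 0 to 19.5 CPM and Hoxa10 36.0 against 0 to 3.98 CPM. Hes5 was 90.1 CPM there and 7.32 to 34.3 CPM in the others. Without this gastruloid, chosen after seeing the data, 108 genes were higher and 115 lower, and with 1 of the 4 lanes left out 61 to 132 were higher and 72 to 117 lower. Hes5 then passed with a log2 change of 1.04 (adjusted p = 0.00999), while with it the change was 0.86 (SE 0.28, adjusted p = 0.0939), both by edgeR's quasi-likelihood test. The levels of Hes5 in the 5 gastruloids of day 4 were 29.6, 42.3, 62.4, 91.5 and 98.2 CPM. Of the 20 named genes that had passed in this step, 13 still did with at least 25 Early Spinal Cord cells. With UMIs per cell as a covariate 17 did, with a lane left out 15 to 18, and by DESeq2 12 of 16 tested.

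Between day 4 and day 4.5 in MULTI-seq 2, 0.397% of 6544 genes passed (14 or 0.214% higher and 12 or 0.183% lower on day 4.5, edgeR's quasi-likelihood test), with 3 of 9 Hox genes of groups 6 to 9 among them. Hes5 had 11.2, 33.1, 36.9 and 45.9 CPM in the 4 gastruloids of day 4 and 63.3, 84.2 and 114 CPM as lowest, median and highest of 11 on day 4.5. The groups did not overlap (log2 change 1.35, SE 0.20, adjusted p = 0.000284). Hes1, a related Notch target, averaged 36.0 ± 13.6 and 68.0 ± 11.1 CPM (0.90). The antisense transcript Hoxb5os averaged 91.6 ± 17.5 and 222 ± 56.6 CPM (1.34); the sources used here do not state whether counting used strand.

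Hoxa7 had 22.4, 25.1, 25.8 and 70.0 CPM on day 4 and 48.2 to 150 CPM on day 4.5, with a log2 change of 1.55. Hoxa9 had 2.96, 3.68, 4.48 and 14.7 CPM and 3.98 to 60.7 CPM (2.62), and Hoxc6 changed by 0.59. Hes3, Stmn2 and Nr6a1 were lower on day 4.5 with log2 changes of -1.25, -0.82 and -0.64. The Wnt5a levels of day 4 were 41.4, 44.8, 46.0 and 77.4 CPM and those of day 4.5 averaged 80.3 ± 10.8 CPM (log2 change 0.64, adjusted p = 0.0536). The day 4 gastruloid highest in Hoxa7 had 164 cells in all and an Early Spinal Cord share of 10.4%. The others fitted on day 4 had 60 to 92 cells and shares of 21.7% to 29.5%, so without it day 4 rests on these small samples alone. Without the gastruloid highest in Hoxa7, chosen after seeing the data, the counts were 12 higher and 6 lower, and Wnt5a passed with a log2 change of 0.89 (adjusted p = 0.00565, edgeR's quasi-likelihood test). Of the 12 named genes that had passed 9 still did, and Id2, Notum and Ncl then had log2 changes of 0.60, -1.14 and -0.24 with adjusted p of 0.216, 0.175 and 0.0696. With UMIs per cell as a covariate 7 of the 12 named genes that had passed still did, and Hes3, Hoxc6, Id2, Ncl and Notum had adjusted p of 0.0585, 0.0626, 0.0663, 0.0718 and 0.0575 by edgeR's quasi-likelihood test. By DESeq2, Hes3 and Id2 did not pass (adjusted p = 0.331 and 0.161) and Wnt5a did (0.0371).

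Between experiments at the same day the Early Spinal Cord cells differed in many genes: 40.8% of 8300 genes passed at day 4.5 (MULTI-seq 3 against MULTI-seq 2) and 59.8% of 8821 at day 5 (MULTI-seq 3 against MULTI-seq 1) by edgeR's quasi-likelihood test. The experiments also differed in UMIs per cell and in mitochondrial share, and these cannot be told apart from the cells' state. Of 9 tested dissociation and stress genes 6 were lower in MULTI-seq 3 at day 4.5, where 20.8% of all tested genes were lower. At day 5, 4 were lower and 1 higher, where 33.5% of all tested genes were lower and 26.3% higher. With UMIs per cell as a covariate 273 genes were higher and 44 lower at day 5, where 2317 (26.3%) and 2958 (33.5%) had been. Hoxa9 illustrates day 4.5, with 93.9 ± 32.5 CPM in MULTI-seq 3 and 37.4 ± 18.3 CPM in MULTI-seq 2 (log2 difference 1.26, adjusted p = 1.49e-06 by edgeR's quasi-likelihood test), while Hoxb9 was lower in MULTI-seq 3 (-0.40, adjusted p = 0.00125). Sox2, Hoxc8 and Wnt5a were higher by 0.36, 0.32 and 0.21, and Hes5 did not pass. With the covariate 886 genes were higher and 667 lower at day 4.5, where 1659 and 1728 had been. Hoxa9 and Hoxb9 then still passed (0.88 and -0.65), while Sox2, Hoxc8 and Wnt5a did not (0.20, 0.22 and 0.22, adjusted p = 0.605, 0.279 and 0.194 by edgeR's quasi-likelihood test). By DESeq2, Sox2 did not pass either (adjusted p = 0.0910). At day 5 Sox2 was 0.40 higher in MULTI-seq 3, Wnt5a 0.12 higher on the log2 scale, and the difference of Hoxc8 was -0.15. With that covariate none of these 3 passed: the signs of Wnt5a and Hoxc8 turned (-0.21 and 0.10), and Sox2 had a log2 difference of 0.70 (adjusted p = 0.753 by edgeR's quasi-likelihood test). The gastruloids' median UMIs per cell did not overlap at day 5 (10993 to 17909 in MULTI-seq 1 and 29433 to 35535 in MULTI-seq 3). The day 5 fit therefore cannot separate UMIs per cell from the experiment.

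The Early Spinal Cord cells of a gastruloid differed with the makeup of the rest of it. The share of somite cells among all cells of a gastruloid (Somites and Mature Somites, the paraxial mesoderm that also comes from NMPs) ran from 2.46% over a median of 32.5% to 55.2% in the 31 gastruloids of days 4.5 and 5 in MULTI-seq 3, and from 3.43% over 16.7% to 43.4% in the 23 of day 5 in MULTI-seq 1. Gene levels were fitted against it, with day as a covariate in MULTI-seq 3, and the slopes are log2 changes per 10 percentage points. Of 9578 genes in MULTI-seq 3 and 8771 in MULTI-seq 1, 2.15% and 0.935% passed (edgeR's quasi-likelihood test). In MULTI-seq 3 1.15% were higher and 1% lower with somite share, and in MULTI-seq 1 0.547% and 0.388%. With 1 of the 3 lanes left out, 78 to 84 genes were higher and 45 to 61 lower in MULTI-seq 3, and 19 to 34 and 14 to 19 in MULTI-seq 1.

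The somite share called 206 genes in MULTI-seq 3 and 82 in MULTI-seq 1, and 45 were called in both, which is 21.8% of the first and 54.9% of the second. All 45 had the same sign, 25 higher with somite share and 20 lower. With 1 lane left out, 32 to 36 of the 45 were still called in MULTI-seq 3, and in MULTI-seq 1 28, 19 and 18 were without lanes 1, 2 and 3. In MULTI-seq 1, 26 were called with at least 25 Early Spinal Cord cells and 27 without a filter on low counts or without the 2 gastruloids farthest from the median somite share. Of the genes called in 1 experiment and tested in the other, 176 of 188 and 80 of 82 had the same sign. A fit of the slopes' difference over both experiments (54 gastruloids) called 0 of 9753 genes by edgeR's quasi-likelihood test, with 525 at an unadjusted p under 0.05 and a smallest adjusted p of 0.0906.

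Of the list of posterior growth zone genes, 8 of 14 tested members rose with the somite share in MULTI-seq 3 and 4 of 13 in MULTI-seq 1, with none lower in either. They are 8 of the 110 and 4 of the 48 genes that were higher. Over all tested genes 1.15% and 0.547% were higher. Fgf17 had the steepest slope of the named members, 0.47 in both experiments (SE 0.06 and 0.064, adjusted p = 2.35e-06 and 4.22e-06 by edgeR's quasi-likelihood test), and ranged from 11.4 over a median of 87.1 to 234 CPM among the gastruloids of MULTI-seq 1. Sp5 followed with 0.43 and 0.42, T with 0.29 and 0.32 and Fgf8 with 0.26 and 0.25. The Wnt potentiator Rspo3 had 0.37 and 0.33, the segmentation clock gene Hes7 0.26 and 0.27 and the Wnt target Axin2 0.22 and 0.29. Ptch1, the receptor of Hedgehog and its target, had 0.32 and 0.45. The plot against somite share gives these levels by gastruloid.

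In MULTI-seq 3 the Wnt targets Notum, Nkd1 and Lef1 (0.30, 0.17 and 0.07), the FGF targets Etv4, Spry4 and Spred1 (0.14, 0.25 and 0.10), Cdx2 (0.11), Evx1 (0.30) and Lin28a (0.08) also rose with somite share. The slope difference passed for none of them. No Hox gene of groups 1 to 9 was called in either experiment, and of groups 10 to 13 Hoxc10 was called in MULTI-seq 3 (0.33, adjusted p = 0.0211 by edgeR's quasi-likelihood test).

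Neural progenitor and retinoic acid genes were among those lower at a high somite share (3 of 23 and 3 of 14 tested in MULTI-seq 3, 2 of 22 and 3 of 11 in MULTI-seq 1). Over all tested genes 1% were lower in MULTI-seq 3 and 0.388% in MULTI-seq 1. Meis2, a partner of Hox proteins induced by retinoic acid, had slopes of -0.37 and -0.59 in MULTI-seq 3 and MULTI-seq 1 (adjusted p = 4.25e-06 and 2.42e-06 by edgeR's quasi-likelihood test), and ranged from 11.3 over a median of 36.3 to 79.5 CPM in MULTI-seq 1. Its paralogue Meis1 had -0.35 and -0.57, and Crabp2 -0.14 and -0.21. Sox2 had -0.16 and -0.22, and it ranged from 76.2 to 261 CPM in MULTI-seq 1. Irx3 had -0.16 and -0.27, the cell cycle inhibitor Cdkn1c -0.18 and -0.38, Igfbp5 -0.36 and -0.43 and the Wnt repressor Tcf7l1 -0.31 and -0.39. Dll1 (-0.34) and Tubb3 (-0.37), genes of nascent neurons, and Nr6a1 (-0.15) were lower in MULTI-seq 3. Of the dissociation and stress genes, Jund was lower in both experiments (-0.24 and -0.28) and Jun in MULTI-seq 3 (-0.37), 2 of 12 tested there and 1 of 9 in MULTI-seq 1. Their part in the other slopes was not tested. Of the other 3 markers none passed: Hoxc8 had -0.07 and -0.09, Wnt5a 0.02 and 0.01 and Hes5 0.02 and 0.11.

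**Figure D4:**
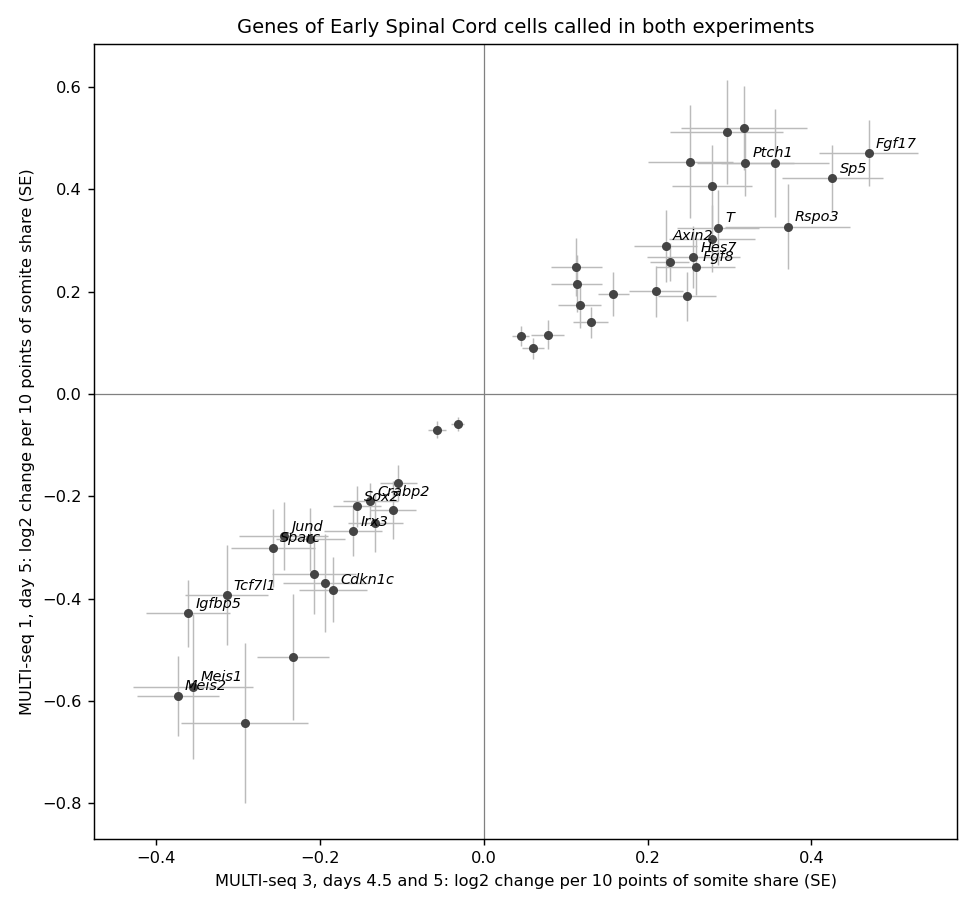
Slopes (log2 change per 10 percentage points of somite share, with SE) in MULTI-seq 3 (x axis) and MULTI-seq 1 (y axis) for the 45 genes called in both. All lie in the upper right or lower left quadrant, with Fgf17 at 0.47 in both and Meis2 at -0.37 and -0.59.

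**Figure D5:**
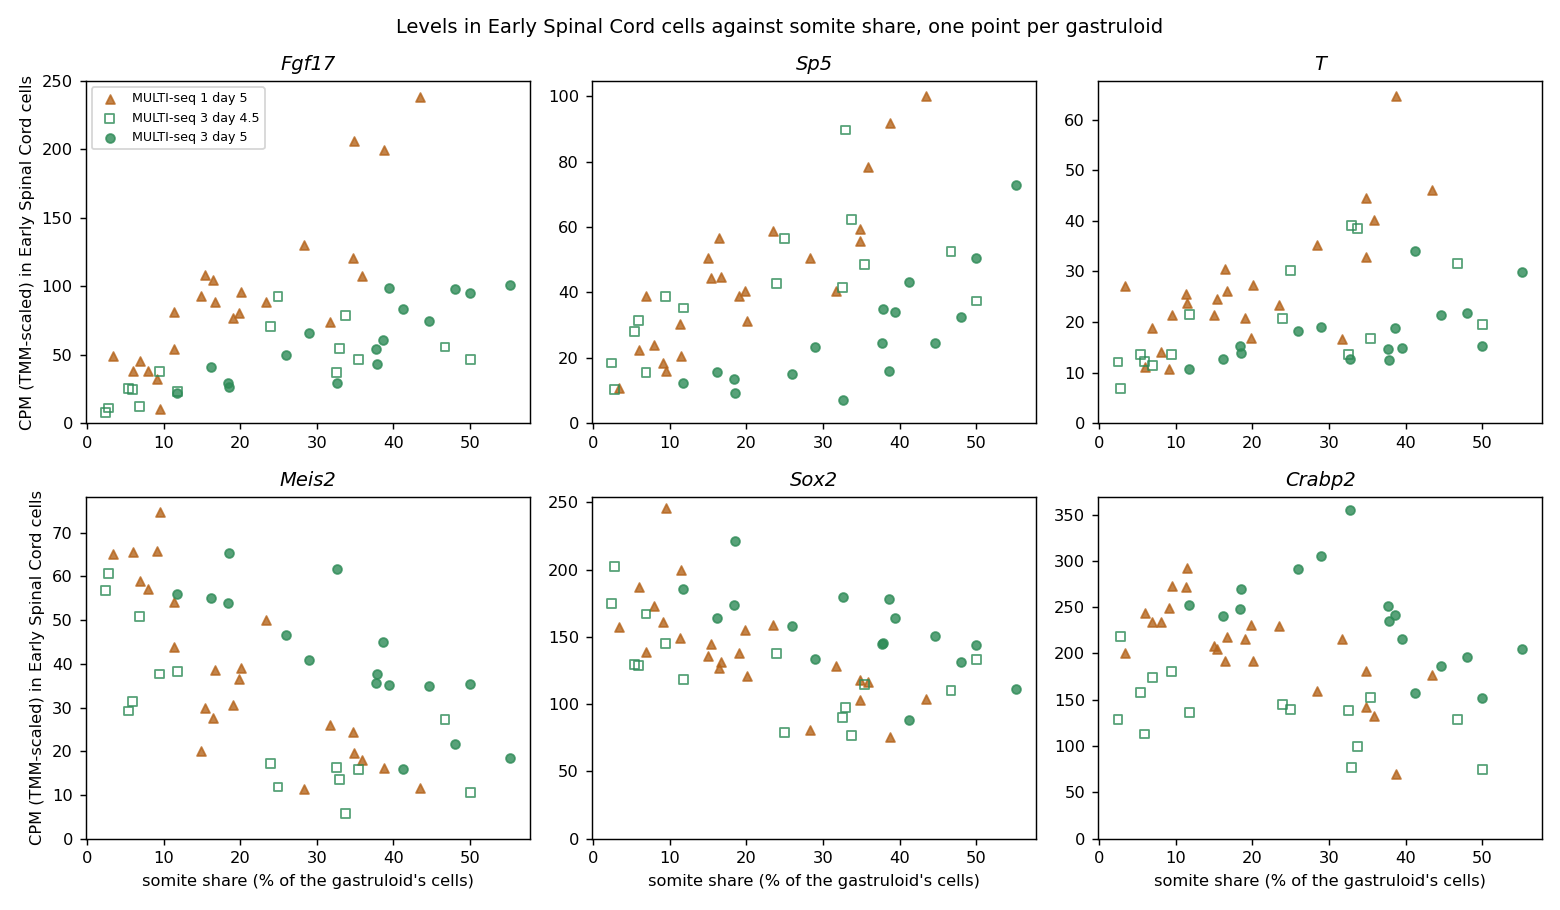
Levels (CPM with TMM scaling) of 6 genes in Early Spinal Cord cells against the gastruloid's somite share (percent), 1 point per gastruloid; triangles are MULTI-seq 1, open squares and filled circles are days 4.5 and 5 of MULTI-seq 3. Fgf17, Sp5 and T are higher and Meis2, Sox2 and Crabp2 lower at a high somite share.

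Several defining somite genes did not pass or were too low in these cells. Tcf15, a somite factor, had slopes of -0.05 and -0.00 (adjusted p = 0.814 and 1.00), and Meox1, tested in MULTI-seq 1 only, had 0.06 (adjusted p = 0.95), all by edgeR's quasi-likelihood test. Pax1, Tbx6, Msgn1, Foxc2 and Uncx were too low to be tested. Of the list of presomitic and somite genes 3 of 8 tested were higher in MULTI-seq 3 (Rspo3, Hes7 and Foxc1) and 2 of 8 in MULTI-seq 1 (Rspo3 and Hes7), beside 1.15% and 0.547% of all tested genes. The 20 genes of that list summed to 127 to 528 CPM per gastruloid in MULTI-seq 1, to 81.6 to 375 CPM on day 4.5 and to 106 to 208 CPM on day 5 of MULTI-seq 3, with Pax1 and Msgn1 at 0 in both groups of MULTI-seq 3. Rspo3 and T are also high in NMPs, and the part of RNA from other cells in these slopes was not tested.

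Several of these genes also differed within gastruloids, between cells matched to NMPs and to spinal cord progenitors. In 50 gastruloids with at least 10 cells of each match, NMP-matched Early Spinal Cord cells had 69.1 CPM of Fgf17 against 33.4 CPM (higher in 50 of 50), 57.3 against 21.8 CPM of Rspo3 (48 of 50) and 26.4 against 12.6 CPM of T (46 of 50). They had less Sox2 (123 against 170 CPM, higher in 2 of 50) and Meis2 (29.1 against 47.7 CPM, 2 of 50). Since the matches rest on these genes, this is a description. Without the cells matched to NMPs or earlier names, 58 genes in MULTI-seq 3 (32 higher and 26 lower) and 15 in MULTI-seq 1 (7 and 8) were called, and of the 45 shared genes 21 and 6 were. Fgf17, Sp5 and Sox2 then kept slopes of 0.53, 0.47 and -0.16 in MULTI-seq 3 (adjusted p = 0.000138, 0.000138 and 0.00103), while T had 0.20 (adjusted p = 0.342), by edgeR's quasi-likelihood test. In MULTI-seq 1 Meis2 still passed with -0.51, while Fgf17 had 0.35 (adjusted p = 0.107), Sox2 -0.18 (adjusted p = 0.233) and Rspo3 -0.04, by the same test.

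Sp5, T and Mycn carry in their promoter the sequence CTTTGAT or CTTTGAA, which the Wnt effectors of the Tcf and Lef family bind, or its reverse complement (ATCAAAG or TTCAAAG), and they are shown because both strands of the 250 bases before the start site were searched for all genes called in both experiments. Sequences are from RefSeq, mouse build GRCm38.p6, 5′ to 3′ on the gene's strand, and capitals mark the match.
Sp5, chr2:70474799-70474845 (+): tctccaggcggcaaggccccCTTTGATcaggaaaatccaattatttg
T, chr17:8434173-8434214 (+): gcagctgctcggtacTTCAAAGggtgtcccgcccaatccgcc
Mycn, chr12:12941837-12941870 (-): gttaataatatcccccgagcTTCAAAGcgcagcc
The matches begin 104, 235 and 14 bases before the start. A promoter was given for 17 of the 25 genes higher with somite share and 3 (17.6%) held a match, against 0 of 16 of the genes lower with it that had one, 433 of 7016 (6.17%) of the genes tested in both experiments and 2333 of 27025 (8.63%) of all genes with a promoter. A match is a description of the letters, not a binding site.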

How the data were processed

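Droplet single-cell RNA-seq from 18 lanes was analysed; the lanes of days 3 and 3.5 in MULTI-seq 2 were not used here. The deposited matrices hold UMI counts per gene and cell barcode, mapped to mm10 with Cell Ranger 6.0.0 and handled in Seurat, per the submitters' processing notes; cell names, barcode calls, days and embryo matches are the authors' deposited annotation. Doublets and cells without a single barcode carry no gastruloid call and entered no gastruloid value. No label or header states the strand setting of the counting.

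Counts of Early Spinal Cord cells were summed per gastruloid over lanes, and levels are CPM of these sums. Gastruloids with at least 30 cells gave shares and those with at least 10 Early Spinal Cord cells entered gene tests. Tests were edgeR's quasi-likelihood test (edgeR 4.0.16, R 4.3.3; TMM scaling, filterByExpr, Benjamini-Hochberg, threshold 0.05), fitted on the groups compared, with day as a covariate for the somite share in MULTI-seq 3. Shares, stages and matches were tested by 2-sided permutation tests (scipy 1.17.1, 100000 resamples, exact with fewer than 10 values in a group) with Benjamini-Hochberg adjustment in each family. Alternatives were DESeq2 1.42.0, its size factors, other cell minimums, no filter, UMIs per cell as a covariate, leaving out each lane, and others added after seeing the data.

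The cells, lists and rules were chosen with earlier results of these data known. Named genes were the 4 markers, the 10 highest and 10 lowest log2 changes among genes past the threshold at 20 CPM or more (mitochondrial, ribosomal protein and unnamed models left out), and up to 4 members of each list per direction. Further Hox genes, members of the somite list and genes set beside a result were added after their values were seen. On simulated data, 200 genes changed by a log2 of 1 were recovered at 97% in the comparison of days 4 and 4.5 in MULTI-seq 2 and at 100% in the others, with 3.38% to 8.26% false calls among those made. The changed genes were all at 20 CPM or more, and counts were drawn without effects shared by the genes of a gastruloid. For somite share the change of 1 was spread over more than 10 percentage points. Recovery of lower genes or smaller changes was not simulated.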

Additional observations from a re-analysis of the deposited data

Results flagged for a closer look

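Of 63 checks for a single gastruloid far from the others of its group, 10 met the criterion, which chance alone meets in about 5% of groups. The genes of 1 gastruloid are not independent, and no cause was tested.

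On day 3.5 of MULTI-seq 3, 1 gastruloid was the highest of 10 in Hes5 at 90.1 CPM (next 34.3 CPM), in Hoxc6 at 122 CPM (next 65.3 CPM) and in Hoxa9 at 99.1 CPM (next 22.7 CPM). These values come from its 12 Early Spinal Cord cells. The highest Hspa8 of that day was 2258 CPM (next 1867 CPM) and the highest Herpud1 45.4 CPM (next 27.9 CPM).

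On day 4 of MULTI-seq 3, the same gastruloid of 5 had the highest Axin2, 65.5 CPM (next 43.7 CPM), and the lowest Mki67, a proliferation gene, at 199 CPM (next 251 CPM). On day 4 of MULTI-seq 2, 1 gastruloid of 4 was highest in Wnt5a at 77.4 CPM (next 46.0 CPM), in Hoxa9 at 14.7 CPM (next 4.48 CPM) and in Hoxa7 at 70.0 CPM (next 25.8 CPM).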

How the results depend on the processing

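Of 205 alternative values of the main results 167 counted as the same, and of 1841 for single genes and reference names 1582 did. For shares, early parts, stages, genes and names this means an unchanged sign and side of the adjusted threshold, whatever the size. Only counts of genes were compared by size. Of the 1841, 225 lost the call, 12 gained it and 22 changed sign. The cause of a move was not tested, except that settings with fewer cells or gastruloids hold less data by construction. With at least 100 cells per gastruloid the share difference of MULTI-seq 2 was 17 points and passed, and that between MULTI-seq 3 and 2 on day 4 turned to 1.71 points. Both rest on day 4 of MULTI-seq 2 without its highest shares (21.7% to 29.5%), which this minimum removed.

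With at least 25 Early Spinal Cord cells, 55 genes were higher on day 4 than on day 3.5, 58 were lower with somite share in MULTI-seq 3, while MULTI-seq 1 had 24 higher and 19 lower. Without a filter, 31 genes were higher on day 4.5 of MULTI-seq 2 and 25 were higher with somite share in MULTI-seq 1. With UMIs per cell as a covariate, 7 genes were lower on day 4.5 of MULTI-seq 2, 284 were higher and 348 lower on day 5 of MULTI-seq 3, 886 and 667 between experiments on day 4.5, and 273 and 44 on day 5.

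The settings that leave out NMP-matched cells, the 2 farthest gastruloids or the day 3.5 or day 4 gastruloid, and those for the embryo stage, were chosen after seeing the data. Without cells matched to NMPs or earlier names the counts were 280 and 318 for day 5 of MULTI-seq 3, 1033 and 938 between experiments on day 4.5, 32 and 26 for somite share in MULTI-seq 3, while MULTI-seq 1 had 7 and 8. Without the 2 gastruloids farthest in somite share, MULTI-seq 1 had 25 higher and 21 lower. Without the day 4 gastruloid highest in Hoxa7, 6 genes were lower in MULTI-seq 2. Leaving out each lane gave 61 to 132 higher on day 4 of MULTI-seq 3, 354 to 374 lower on day 5, 45 to 61 lower with somite share in MULTI-seq 3, while MULTI-seq 1 had 19 to 34 higher and 14 to 19 lower.

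Signs turned mostly for values near 0. With UMIs per cell as a covariate, the day 5 differences between experiments were 0.60 for Hes5, 0.10 for Hoxc8 and -0.21 for Wnt5a, in a fit that cannot separate UMIs per cell from the experiment. Hoxc8 in MULTI-seq 2 was -0.00042 with DESeq2's size factors, -0.0027 with DESeq2 and -0.0030 with that covariate. Sox2 was -0.13 in MULTI-seq 2 without the day 4 gastruloid and ran from -0.19 to 0.0028 on day 4 of MULTI-seq 3 with a lane left out (0.0028 without lane A). The Hes5 somite slope in MULTI-seq 3 was -0.018 with at least 25 cells and -0.053 without NMP-matched cells, and -0.0063 to 0.044 with a lane left out. Without those cells the slopes in MULTI-seq 1 were -0.0014 for Hes5, -0.041 for Rspo3 and -0.012 for Wnt5a, and Wnt5a had -0.0058 against the somite share among other cells and -0.011 to 0.024 with a lane left out. The difference in NMP matches on day 4 of MULTI-seq 3 was -6.17 points with at least 25 cells, -7.25 without lane A and -3.22 without lane C (at most 8.18 with a lane left out), and on day 5 it was -1.86, -0.124 and -0.0145 (at most 3.26).

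No value was obtained for genes between days 4 and 4.5 of MULTI-seq 2 with at least 25 cells, without NMP-matched cells or with a lane left out, for day 4 of MULTI-seq 3 without NMP-matched cells, and for the early part in MULTI-seq 2 under most settings, since too few gastruloids were left. No paired analysis was possible because lanes are technical splits of 1 pool and no barcode number occurs on both days of a day comparison. Numbers that recur on other days or in another experiment mark other gastruloids.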
